A study of Mus musculus with 2 samples.

Results

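Loss of CD3e in hearts without pressure overload was examined by setting the leukocytes of CD3e-/- mice that had a sham operation beside those of wild-type (WT) mice that had the same operation, which asks how the leukocytes differ when T cells are lacking and the heart is not stressed. The cells were chosen by their hashtag and by 2 filters, namely at least 500 detected genes and a mitochondrial share of reads of at most 0.4. This gave 1835 of the 5263 cells that passed in all 5 groups, of which 1000 were WT sham and 835 were CD3e-/- sham. The monocytes and macrophages were taken apart as cells with at least 200 CPM (reads of a gene scaled to a fixed total, as reads per 10 to the power 6 reads) of *Csf1r*, the receptor of the growth factor that maintains these cells, and at least 2000 CPM of *Lyz2*, the myeloid lysozyme. The 1050 such cells, called Csf1r Lyz2 cells here, were 565 in WT sham and 485 in CD3e-/- sham.

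All mice were male, 8 weeks of age and labelled as strain C57BL/6N, and the hearts were taken 1 week after the operation. CD3e-/- mice carry a disrupted *Cd3e* gene in the germline and so in every cell. CD45+ cells of both sham groups, and of 3 groups that had transverse aortic constriction (TAC; WT, CD3e-/-, and WT given an antibody to CD8), carried hashtags and were sequenced together in 1 TAS-Seq library, a whole-transcriptome protocol for the BD Rhapsody microwell system. Each group is 1 hashtag, and how many hearts were joined under it is not given in the sources used here. The values therefore compare 1 pool with 1 pool, with no replicate and no test.

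CD3e is one of the invariant chains that carry the T cell receptor to the surface and signal for it, and without it the development of alpha-beta and gamma-delta T cells stops in the thymus, while B cells, natural killer (NK) cells and innate lymphoid cells develop. The mouse heart holds resident macrophages that express *Lyve1*, *Timd4*, *Folr2*, *Cd163* and *Cbr2*, are laid down before birth and largely renew themselves, beside macrophages that express *Ccr2* and are replaced from blood monocytes. Ly6c-high monocytes are the form that leaves the bone marrow and enters tissue.

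Depth was similar in the 2 sham groups, with a median of 75442 reads and 3418.5 genes per WT cell and of 78372 reads and 3455 genes per CD3e-/- cell. In the Csf1r Lyz2 cells the medians were 76303 and 84408 reads. Intervals in brackets are exact 95% limits, by the Clopper-Pearson method for shares and by the Poisson distribution for summed reads. These limits take in only the error of counting, and since reads rather than molecules were counted they are too narrow. No cell barcode stood under more than 1 hashtag.

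T cells were absent from the CD3e-/- sham heart at this depth. Cells with at least 2 of *Cd3d*, *Cd3g* and *Trac* at 100 CPM or more numbered 37 of 1000 in WT sham, or 3.7% [2.62 to 5.06], and 0 of 835 in CD3e-/- sham, which allows a share of up to 0.359% by a limit of 3 cells and of up to 0.441% by the exact limit. After TAC they numbered 38 of 1615 in WT and 0 of 919 in CD3e-/- mice. *Cd3g*, another chain of the receptor complex, was at 45.6 CPM of all reads in WT sham and 0.555 CPM in CD3e-/- sham. *Trac*, the constant part of the alpha chain, was at 36.7 and 1.28 CPM, and *Cd3d* was at 24.4 and 1.84 CPM. *Trdc*, the constant part of the delta chain, was at 14.8 CPM in WT sham, from 6 cells, and had no read in CD3e-/- sham.

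*Cd3e* reads did not vanish with the T cells. Their level was 17.8 CPM in WT sham and 3.73 CPM in CD3e-/- sham, and of the reads left 81.3% lay in Csf1r Lyz2 cells, against 6.76% of those in WT sham. Within the Csf1r Lyz2 cells *Cd3e* was at 2.16 CPM in WT sham and 4.93 CPM in CD3e-/- sham, with reads in 21 and 29 cells and 53.0% and 25.1% of the reads from 1 cell. After TAC it was at 3.22 CPM in the WT pool and 6.22 CPM in the CD3e-/- pool of these cells. *Trbc1* and *Trbc2*, the constant parts of the beta chain, also kept reads in CD3e-/- sham, at 27.4 and 15.5 CPM against 57.7 and 73.5 CPM in WT sham. Of these reads 62.6% for *Trbc1* and 60.8% for *Trbc2* lay in cells with markers of type 2 innate lymphoid cells (ILC2), where the level of *Trbc1* was 400 CPM in WT sham and 803 CPM in CD3e-/- sham and that of *Trbc2* was 414 and 439 CPM.

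Among the other lymphocytes the B cell share was higher in the CD3e-/- pool and the NK cell share was lower. Cells with B cell markers made up 10.4% [8.58 to 12.5] of WT sham and 15.2% [12.8 to 17.8] of CD3e-/- sham cells, at 104 and 127 cells. The TAC pair lay the same way, at 5.76% [4.67 to 7.01] in WT and 8.27% [6.57 to 10.2] in CD3e-/- mice. Shares sum to the whole, so a lack of T cells by itself scales all other shares up by the same factor. The size of that factor is set by the T cell share, which was 3.7% of WT sham cells. The B cell share differed by 4.81 percentage points [1.75 to 7.94]. How much of this goes with the lack of T cells was not tested. Cells with NK markers numbered 16 of 1000 in WT sham and 5 of 835 in CD3e-/- sham, or 1.6% [0.917 to 2.59] and 0.599% [0.195 to 1.39], with limits that overlap. After TAC the NK order was the opposite, at 0.557% in WT and 1.2% in CD3e-/- mice.

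For the larger of the remaining cell types the limits of the sham pools overlapped. ILC2 made up 4.3% of WT sham and 3.71% of CD3e-/- sham cells, mast cells 3.6% and 3.35%, type 1 conventional dendritic cells (cDC1) 2.7% and 3.23%, and type 2 (cDC2) 4.6% and 5.03%. Csf1r Lyz2 cells made up 56.5% [53.4 to 59.6] and 58.1% [54.7 to 61.5]. The rarest types were too few to compare, with neutrophils at 0 of 1000 and 5 of 835 and mature dendritic cells at 6 and 2. In the plot of shares the limits of the sham pools do not overlap for T cells and B cells and, within the Csf1r Lyz2 cells, for the resident macrophage and Ly6c-high markers.

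**Figure D1:**
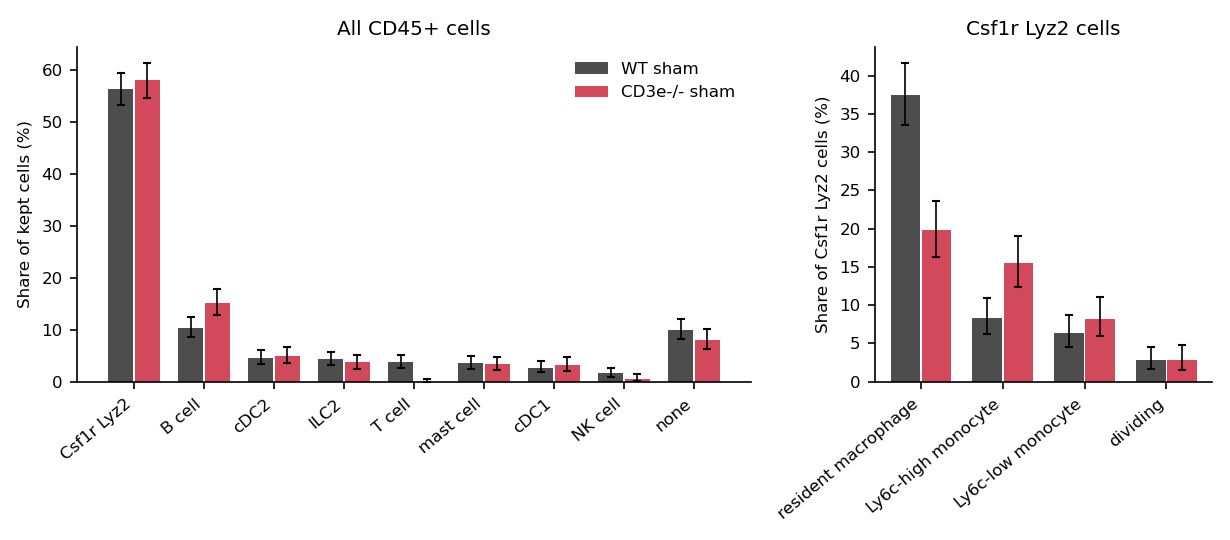
Share of cells (%) by marker gate in WT sham (grey) and CD3e-/- sham (red), of all kept CD45+ cells on the left and of Csf1r Lyz2 cells on the right; error bars are exact 95% limits for counting error in 1 pool per group. T cells stand at 3.7% against 0, resident macrophage markers at 37.5% against 19.8%, and Ly6c-high markers at 8.32% against 15.5%.

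In all CD45+ cells, 3728 genes had at least 50 CPM in 1 or both sham pools and reads in at least 20 cells of the 2 together. Ratios are log2 of CD3e-/- sham over WT sham after adding 10 CPM to both, which understates the change of low genes. A ratio past 2-fold was seen for 7 genes that were higher (0.188% of those tested) and 18 that were lower (0.483%), and the median over all genes was -0.00496. With 1 pool a side, nothing in these counts says how far 2 WT pools would differ. In bulk sums like these, fewer cells of a type and less RNA per cell cannot be told apart.

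Several of the 18 lower genes are known from T and NK cells. *Xcl1*, a chemokine of NK and CD8 T cells, was at 81.0 [79.2 to 82.8] CPM in WT sham and 7.94 [7.38 to 8.54] CPM in CD3e-/- sham, a log2 ratio of -2.34. In WT sham 71.6% of its reads lay in NK cells and 17.4% in T cells. *Trbc2* (-1.71), *Ms4a4b* (-1.44), *Thy1* (-1.23), *Nkg7* (-1.08), a granule protein of cytotoxic cells, and *Ccl5* (-1.04), a chemokine made by such cells, were also past 2-fold lower. Without the cells that had T, NK or B cell markers these ratios were -0.48 for *Xcl1*, -0.58 for *Trbc2*, -0.44 for *Ms4a4b*, -0.26 for *Thy1*, -0.17 for *Nkg7* and -0.28 for *Ccl5*. Those cells held most of the WT sham reads of these genes, so smaller ratios follow in part from the step itself. *Ccl22*, a chemokine of mature dendritic cells that draws regulatory T cells, was at 73.0 CPM in WT sham and 13.8 CPM in CD3e-/- sham, kept a ratio of -1.88 without those cells, and had 66.2% of its WT reads in 6 mature dendritic cells, a gate of which it is itself a marker.

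The receptor and lymphocyte lists held few genes above the 50 CPM minimum, and their counts stand beside 0.483% of all genes past 2-fold lower and 0.188% past 2-fold higher. Of the T cell receptor complex 2 of 11 genes passed it, both were below 0 and 1, *Trbc2*, was past 2-fold lower. Of 17 T cell coreceptor and signalling genes only *Cd2* passed, at 0.30. Of its reads 28.6% in WT sham and 51.5% in CD3e-/- sham lay in Csf1r Lyz2 cells, and 23.9% and 32.4% in B cells. Of 16 NK and cytotoxic genes 3 passed and all were past 2-fold lower. Of 12 type 2 innate lymphoid genes 4 passed, all below 0, with *Thy1* past 2-fold. Of 15 B cell identity genes 10 passed and all were above 0, none past 2-fold, with a median of 0.22 and with *Fcmr*, the receptor for IgM, the highest at 58.2 and 87.1 CPM. In cells with B cell markers *Fcmr* was at 885 CPM in WT sham and 866 CPM in CD3e-/- sham.

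Of 12 immunoglobulin chain genes 8 were in the matrix and 5 passed, and the 2 past 2-fold lower (0.483% of all genes were), *Igha* and *Igkc*, turned on 1 cell. *Igha*, the heavy chain of IgA, was at 714 CPM in WT sham and 3.34 CPM in CD3e-/- sham, and 99.6% of its WT reads came from 1 cell. *Igkv3-2*, a light chain variable segment that was also past 2-fold lower, had 99.6% of its WT reads from 1 cell. For *Igkc*, the kappa constant region, 69.9% of the WT reads came from 1 cell. Without the WT cell with the most *Igha* reads, the log2 ratios of *Igha*, *Igkv3-2* and *Igkc* were 0.0912, 0.03 and 0.43.

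Mast cells, whose share was alike, had less of several of their own transcripts in the CD3e-/- pool. *Fcer1a*, the IgE-binding chain of the high-affinity receptor, was at 91.6 CPM of all reads in WT sham and 34.5 CPM in CD3e-/- sham (-1.19), with 99.3% and 100% of its reads in mast cells. *Mrgprb1*, the receptor for basic secretagogues of connective tissue mast cells, was at 117 and 49.4 CPM (-1.09). Within the mast cells, 36 in WT sham and 28 in CD3e-/- sham, *Fcer1a* was at 2623 and 1553 CPM, *Mrgprb1* at 3372 and 2221 CPM, and the proteases *Mcpt4* at 41398 and 32996 CPM and *Cma1* at 32710 and 25721 CPM. Counted with the same weight for each cell, the ratios over all CD45+ cells were -0.74 for *Fcer1a* and -0.54 for *Mrgprb1*, neither past 2-fold.

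The 7 higher genes over all CD45+ cells were *Mmp12* at 101 and 371 CPM (1.78), *Il1rn* (1.52), *AA467197* (1.34), *Clec4e* (1.16), *Chil3* (1.10), *Il1b* (1.04) and *Gda*, guanine deaminase, at 97.7 and 207 CPM (1.01). With the same weight for each cell, 2 of the 7 were past 2-fold, and *Chil3* was at 0.41 and *AA467197* at 0.94. *Cxcl2* at 849 and 1583 CPM (0.89), *Hmox1* (0.89) and *Ccr1* (0.87) stood just inside 2-fold. In the TAC pair, where 0.451% of genes were past 2-fold higher, none of the 7 passed it, and *Gda* was at 215 and 368 CPM (0.75).

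Within the Csf1r Lyz2 cells the resident macrophage markers were lower in CD3e-/- sham. Cells with at least 3 of *Lyve1*, *Folr2*, *Timd4*, *Cd163*, *Cbr2*, *Gas6*, *F13a1* and *Igf1* at 100 CPM or more numbered 212 of 565 in WT sham, or 37.5% [33.5 to 41.7], and 96 of 485 in CD3e-/- sham, or 19.8% [16.3 to 23.6]. Set to equal depth by thinning each cell, the shares were 37.2% and 20.1%. With 2 markers they were 52.7% and 34.0%, and with 4 they were 28.0% and 11.3%. The median depth of the cells that met 3 was 75547 reads in WT sham and 81514 in CD3e-/- sham. *Cd163*, the scavenger receptor for haemoglobin bound to haptoglobin, reached 100 CPM in 33.6% [29.7 to 37.7] of WT sham and 17.9% [14.6 to 21.6] of CD3e-/- sham cells, and in 4 of 104 and 1 of 127 B cells of the same pools, whose median depths were 44461 and 46773 reads. *Lyve1*, the hyaluronan receptor, reached it in 13.3% [10.6 to 16.4] and 6.39% [4.38 to 8.95], and *Timd4*, a receptor for apoptotic cells, in 6.37% [4.5 to 8.71] and 2.89% [1.59 to 4.8].

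Markers of monocytes and of *Ccr2*-expressing cells lay the other way. At least 3 markers of a Ly6c-high set that includes *Ly6c2*, *Ccr2*, *Plac8*, *Chil3*, *Vcan* and *Hp* were found in 8.32% [6.18 to 10.9] of WT sham and 15.5% [12.4 to 19.0] of CD3e-/- sham cells, and in 8.54% and 15.98% at equal depth. These were 47 and 75 cells. *Ly6c2* itself reached 100 CPM in 47 of 565 and 55 of 485 cells, shares whose limits overlap. Some of the 75 cells therefore met the set without *Ly6c2*. *Ccr2*, the receptor by which monocytes leave the marrow, reached 100 CPM in 45.8% [41.7 to 50.1] and 58.6% [54.0 to 63.0]. B cells of the same pools reached it for *Ccr2* in 9 of 104 and 13 of 127. The summed level of *Ccr2* differed less, at 1247 and 1479 CPM, and was alike in cells with fewer than 3 resident markers, as given below. These shares are of the same cells as those with resident markers, so they can rise where the resident share falls. How much of the difference goes with that fall was not tested. Markers of Ly6c-low monocytes were met by 6.37% and 8.25%, and those of dividing cells by 2.83% and 2.89%.

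In the Csf1r Lyz2 cells 3632 genes passed the minimum, and 8 were past 2-fold higher (0.22% of those tested) and 8 past 2-fold lower (0.22%), beside a median of -0.00263. The middle 80% of genes lay between -0.29 and 0.26. In the plot of ratio against level these genes lie at low as well as high levels, from *Mmp19* to *Spp1*.

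**Figure D2:**
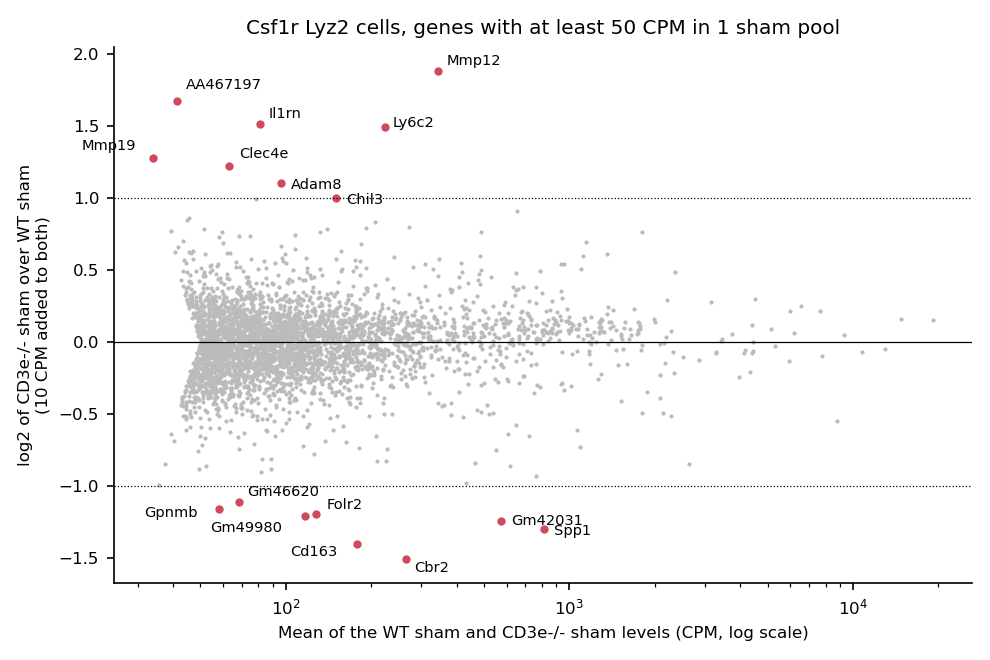
log2 ratio of CD3e-/- sham over WT sham (10 CPM added to both) against the mean level of the 2 pools in CPM (log axis) for the 3632 genes tested in Csf1r Lyz2 cells, 1 point per gene; dotted lines mark 2-fold and red points the 16 genes past it. *Mmp12* is the highest at 1.88 and *Cbr2* the lowest at -1.51.

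Of the 8 lower genes, 3 were resident macrophage genes. *Cbr2*, a carbonyl reductase, was at 398 [392 to 403] CPM in WT sham and 133 [130 to 136] CPM in CD3e-/- sham, a log2 ratio of -1.51. *Cd163* was at 263 [259 to 268] and 93.5 [91.0 to 96.1] CPM (-1.40), and *Folr2*, the beta folate receptor, at 182 and 74.0 CPM (-1.19). Reads came from 202 and 103 cells for *Cbr2*, 200 and 102 for *Cd163* and 119 and 47 for *Folr2*, and no cell gave more than 9.96% of the reads of any of them. *Stab1*, the scavenger receptor stabilin 1, stood just inside 2-fold at 578 and 289 CPM (-0.98).

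*Spp1*, which encodes osteopontin, and *Gpnmb*, a glycoprotein of lipid-laden macrophages, were also lower but rested on few cells. *Spp1* was at 1161 CPM in WT sham and 466 CPM in CD3e-/- sham (-1.30), with 20.5% and 38.3% of the reads from 1 cell in each pool. It reached 100 CPM in 56 of 565 and 56 of 485 cells, a like share of 9.91% and 11.5%. *Gpnmb* was at 84.2 and 32.2 CPM (-1.16), from 15 and 8 cells. It was the lowest member of a list of 15 lipid handling and *Trem2* genes, most of which lay the other way. Of these 12 passed the minimum, with 8 above and 4 below 0 and a median of 0.21. Only 1, *Gpnmb*, was past 2-fold lower (0.22% of all genes were). The last 3 of the 8, *Gm42031*, *Gm49980* and *Gm46620*, also parted the genotypes over all CD45+ cells.

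Of the 8 higher genes, *Mmp12*, the macrophage elastase, had the largest ratio. It was at 141 [138 to 144] CPM in WT sham and 546 [540 to 552] CPM in CD3e-/- sham, a log2 ratio of 1.88, or 3.68-fold. It reached 100 CPM in 10.8% [8.36 to 13.7] of WT sham and 20.2% [16.7 to 24.1] of CD3e-/- sham cells, and no cell gave more than 10.98% of its reads. B cells reached 100 CPM of *Mmp12* in 1 of 104 and 4 of 127. *Mmp19*, another matrix metalloproteinase, was at 15.7 and 52.2 CPM (1.28), and *Adam8*, a membrane-bound protease, at 57.2 and 135 CPM (1.11).

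*Il1rn*, the secreted antagonist of interleukin 1, was at 37.3 [35.6 to 38.9] CPM in WT sham and 125 [122 to 128] CPM in CD3e-/- sham (1.51). Its partner *Il1b*, the cytokine itself, was at 450 and 852 CPM, just inside 2-fold in these cells (0.91) and past it over all CD45+ cells (1.04), where 8.89% of the CD3e-/- reads lay in the 5 neutrophils. *Il1b* reached 100 CPM in 31.2% [27.4 to 35.1] and 47.4% [42.9 to 52.0] of Csf1r Lyz2 cells and in 5 of 104 and 5 of 127 B cells. *AA467197*, the mouse counterpart of human NMES1, was at 14.6 and 68.4 CPM (1.67) from 14 and 26 cells, and *Clec4e*, the receptor Mincle, at 33.9 and 92.3 CPM (1.22).

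*Ly6c2*, which encodes the Ly6C antigen, was at 112 [109 to 115] CPM in WT sham and 334 [330 to 339] CPM in CD3e-/- sham (1.49), though it reached 100 CPM in 8.32% [6.18 to 10.9] and 11.3% [8.66 to 14.5], with limits that overlap. *Chil3*, the chitinase-like protein Ym1 of monocytes, was at 96.5 and 203 CPM (1.00), but 49.7% of its CD3e-/- reads came from 1 cell, and without the cell with the most reads in each pool its ratio was 0.38. *Ccr1*, a chemokine receptor, was at 49.0 and 107 CPM (0.99), just inside the threshold. Counted with the same weight for each cell, 6 genes were past 2-fold higher and 3 of the 8 were among them, *Mmp12* at 1.62, *Ly6c2* at 1.48 and *Il1rn* at 1.33. On that count *AA467197* was at 1.17 but under the minimum level, and *Adam8*, *Clec4e* at 0.92, *Mmp19* at 0.86 and *Chil3* at 0.36 were inside 2-fold.

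Promoter sequence was searched for the genes past 2-fold, several of which lay the same way. RefSeq start sites of build GRCm38.p6 were used for 13 of the 16 genes, with 19 windows of 250 bases before a start. Any start of these genes on 1 chromosome was left out by rule, but such starts stayed among all promoters. The AP-1 motif TGAGTCA, searched on both strands, was in 4 of the 19 windows and in 4.46% of all 32851 such promoters, in windows of *Mmp12*, *Il1rn*, *AA467197* and *Folr2*. The C/EBP motif TTNNGCAA was in 4 of the 19 windows, from 4 of the 13 genes, against 9.56% of all promoters. The PU.1 motif GAGGAAGT was also in 4 of the 19 windows, from 3 genes, against 2.44%, and these include overlapping windows of *Ly6c2*. The MAF recognition motif TGCTGAC and the NF-kB motif were found in none, against 3.81% and 0.356% of all promoters. A match is a run of letters and not a bound site, and windows of 1 gene can overlap. The windows of the 3 higher genes that hold the AP-1 run are printed 5′ to 3′ on the strand of the gene, in lower case with the run in capitals, which reads TGACTCA where the match is on the other strand. They lie at chr9:7347124-7347373 (+) for the second start of *Mmp12*, chr2:24336610-24336859 (+) for the first of *Il1rn* and chr2:122637637-122637886 (+) for *AA467197*.
Mmp12: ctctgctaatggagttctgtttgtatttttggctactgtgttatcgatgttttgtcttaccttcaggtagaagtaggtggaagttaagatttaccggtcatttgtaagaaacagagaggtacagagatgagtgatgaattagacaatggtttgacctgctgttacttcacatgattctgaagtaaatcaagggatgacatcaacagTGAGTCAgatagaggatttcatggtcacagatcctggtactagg
Il1rn: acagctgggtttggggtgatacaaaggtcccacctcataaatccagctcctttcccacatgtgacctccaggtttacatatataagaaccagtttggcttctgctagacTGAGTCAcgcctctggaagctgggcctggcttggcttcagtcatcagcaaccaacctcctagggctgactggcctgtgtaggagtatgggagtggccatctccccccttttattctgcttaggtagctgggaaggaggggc
AA467197: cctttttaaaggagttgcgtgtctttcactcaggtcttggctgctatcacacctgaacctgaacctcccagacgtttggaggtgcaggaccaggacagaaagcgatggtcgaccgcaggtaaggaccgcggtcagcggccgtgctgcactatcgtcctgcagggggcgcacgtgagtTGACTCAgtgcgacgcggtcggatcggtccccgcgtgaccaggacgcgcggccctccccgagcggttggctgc

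**Figure D3:**
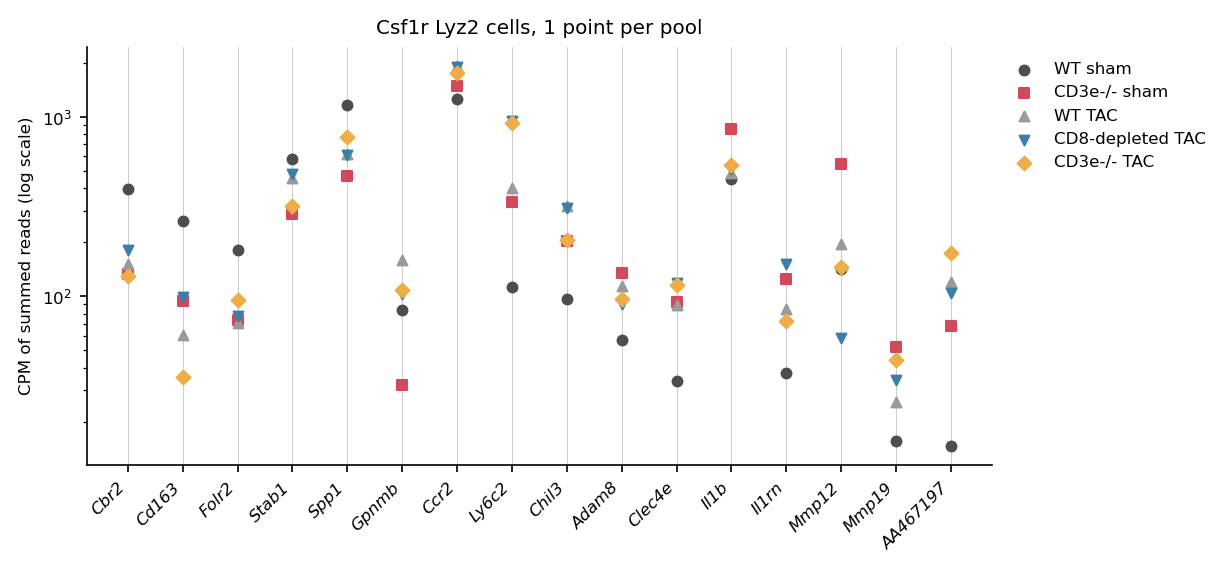
Level of 16 genes in Csf1r Lyz2 cells as CPM of summed reads (log axis), 1 point for each of the 5 pools. WT sham is the highest pool for *Cbr2*, *Cd163*, *Folr2*, *Stab1* and *Spp1*, and CD3e-/- sham is the highest for *Mmp12* at 546 CPM, *Il1b* at 852 CPM, *Adam8* and *Mmp19*.

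With both pools set to 1 mix of cells with and without 3 resident markers, 5 genes were past 2-fold higher, 4 of them among the 8, and 5 were lower, all among the 8. *Mmp12* was at 1.64, *Il1rn* at 1.26 and *Ly6c2* at 1.21. *Cbr2*, at -0.69, *Cd163*, at -0.78, and *Folr2*, at -0.34, are markers that set the mix, so that smaller ratios for them follow from the step itself. Among the cells with fewer than 3 resident markers, 353 in WT sham and 389 in CD3e-/- sham, *Mmp12* was at 207 and 631 CPM, *Il1rn* at 51.6 and 149 CPM, *Il1b* at 583 and 978 CPM and *Ly6c2* at 164 and 401 CPM. *Ccr2* was alike in them, at 1632 and 1642 CPM. Among the 212 and 96 cells with the markers *Cd163* was at 681 and 367 CPM, *Cbr2* at 1122 and 682 CPM and *Folr2* at 537 and 411 CPM. These genes are among the markers that chose the cells, so the last values describe the gate and are no separate finding. *Stab1*, which is not, was at 1255 and 900 CPM with the markers and at 235 and 162 CPM without them. Over all Csf1r Lyz2 cells *Stab1* was lower in both CD3e-/- pools, sham and TAC, than in every WT pool, as given below.

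The gene lists in Csf1r Lyz2 cells are given by their counts beside the median of -0.00263 over all genes. Of 20 resident macrophage genes 16 passed the minimum, all 16 were below 0, 3 were past 2-fold lower (0.22% of all genes were) and the median was -0.63. Of the genes that passed, 7 are also markers that chose the cells with resident markers. Beyond those, *Pf4*, platelet factor 4, was at 800 and 435 CPM (-0.86), *Mrc1*, the mannose receptor, at 1289 and 840 CPM (-0.61) and *C1qa*, a chain of complement C1q, at 2504 and 1774 CPM (-0.49). Of the general macrophage genes, *Csf1r* itself was at 1740 and 1306 CPM (-0.41), *Adgre1*, which encodes F4/80, at 441 and 325 CPM (-0.43), and *Lyz2* at 13205 and 12734 CPM (-0.05). *Csf1r* and *Lyz2* chose these cells by a minimum level, so their values here are limited by that rule and are no separate finding.

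Of 16 monocyte genes 13 passed, all above 0 with a median of 0.38, and 2 were past 2-fold higher (0.22% of all genes were). *Plac8* was at 383 and 584 CPM (0.60) and *Ace*, angiotensin-converting enzyme and a gene of Ly6c-low monocytes, at 52.3 and 81.5 CPM (0.56). The inflammatory cytokine list of 14 genes also holds an antagonist, inhibitors, enzymes and a sensor. Of these 14 genes 7 passed, all above 0 with a median of 0.52. Of the 7, 1 was past 2-fold higher (0.22% of all genes were), the antagonist *Il1rn* (1.51). *Ptgs2*, the inducible cyclooxygenase, was at 29.1 and 60.4 CPM (0.85) and *Nlrp3*, the inflammasome sensor, at 53.0 and 80.5 CPM (0.52). *Tnf* was at 98.4 and 111 CPM (0.16). Of 20 chemokine genes 12 passed, 9 above 0 and none past 2-fold, with a median of 0.40. *Cxcl2*, which draws neutrophils, was at 1340 and 2278 CPM (0.76), *Ccl6* at 1073 and 1647 CPM (0.61) and *Ccl24*, an eosinophil chemokine of resident macrophages, at 64.1 and 33.8 CPM (-0.76).

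Of 19 genes of glycolysis and hypoxia 12 passed the minimum, those 12 were above 0 with none past 2-fold, and they had a median of 0.36 and a range from 0.17 for *Hk2* to 0.54 for *Ldha*, lactate dehydrogenase A, at 250 and 367 CPM. Of 13 genes of MHC class II presentation 10 passed, all above 0 with a median of 0.21, and *Cd74*, the invariant chain, was at 18119 and 20166 CPM (0.15). The highest of them, *H2-DMb2*, was at 60.5 and 86.4 CPM (0.45). B cells also express these genes, and the B cell markers *Cd79a* and *Igkc* were at 2.73 and 38.9 CPM and at 16.01 and 105 CPM in the WT and CD3e-/- sham Csf1r Lyz2 cells, where 1 and 11 cells reached 100 CPM of *Cd79a*. Of 8 markers of cDC2, which also carry class II, 3 passed in the Csf1r Lyz2 cells, the 3 were above 0 with a median of 0.38, and the summed level of the 8 was 1041 and 1155 CPM. The part of either cell type in the class II ratios was not tested. Without the cells that also had B, T or NK markers, 10 genes were past 2-fold higher and 8 lower, and all 16 genes were among them.

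Interferon-gamma-induced genes, of which 6 of 20 passed, had a median of 0.02, with 3 above and 3 below 0, and *Cxcl10*, a chemokine, was the highest at 46.0 and 67.4 CPM (0.47). Type I interferon genes (10 of 23) had a median of 0.06, from *Oasl2* at -0.53 to *Isg15* at 0.49. The median was -0.00292 for MHC class I presentation (13 of 15), -0.02 for immediate early genes (19 of 20) and 0.07 for oxidative phosphorylation (18 of 20). Lysosome genes (16 of 18) had a median of -0.23, complement genes (10 of 14) of -0.22 and heat shock proteins (10 of 13) of -0.06.

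**Figure D4:**
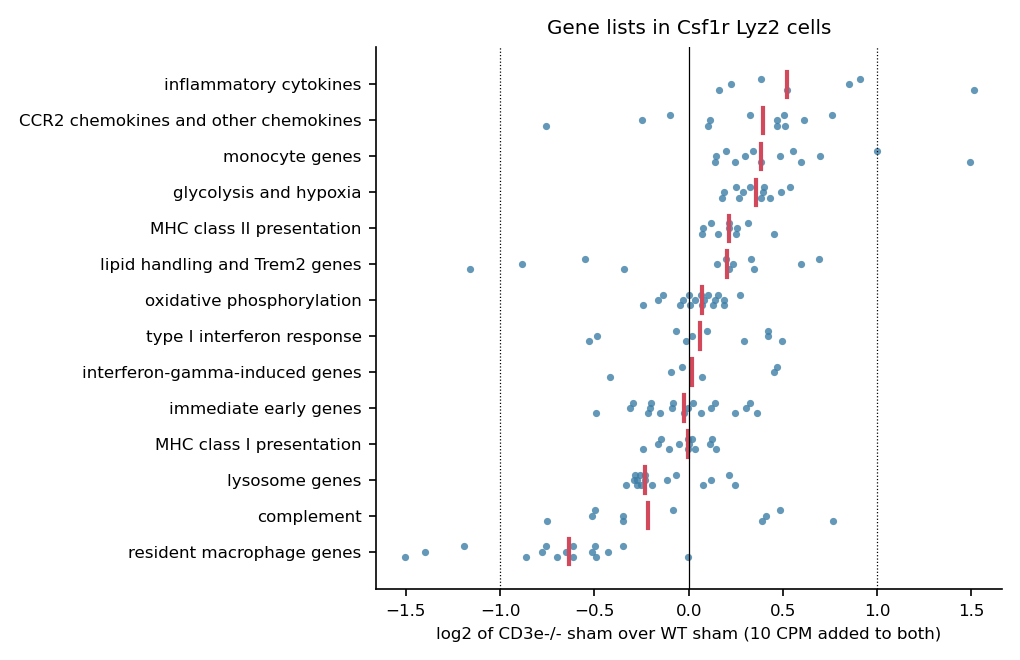
log2 ratio of CD3e-/- sham over WT sham (10 CPM added) of each gene that passed the minimum in Csf1r Lyz2 cells, by list; blue points are genes, red bars the list medians and dotted lines 2-fold. The resident macrophage genes lie at or below 0 with a median of -0.63, and the inflammatory cytokine genes above 0 with a median of 0.52.

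Growth and repair factors did not move together. Of 19 genes 7 passed, with 4 above and 3 below 0. *Igf1*, insulin-like growth factor 1, was at 204 and 122 CPM (-0.70), *Osm*, oncostatin M, at 79.4 and 121 CPM (0.55), and *Msr1*, the macrophage scavenger receptor, at 168 and 172 CPM (0.03). *Areg*, amphiregulin, was under the minimum in these cells, at 8.24 and 40.2 CPM with 51.6% and 55.1% of the reads from 1 cell, and *Arg1*, arginase 1, stood at 5.004 and 20.8 CPM from 4 cells in each pool, 1 of which gave 84.2% of the CD3e-/- reads. *Il10* (2.11 and 4.92 CPM, with 58.9% of the WT reads from 1 cell) and *Csf1* (14.96 and 10.1 CPM) were also under it. *Hmox1*, the heme oxygenase, was at 138 and 245 CPM (0.79), the opposite way to *Cd163*, whose product takes up haemoglobin.

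The TAC pair has the same genotypes in 2 other pools and shares no cells with the sham pair. Of the genes tested in both pairs in Csf1r Lyz2 cells, 1 was past 2-fold higher in both and 3 were past 2-fold lower in both, where 0.409% and 0.246% of genes passed in the TAC pair. The 1 was *Ly6c2*, at 402 CPM in WT TAC and 920 CPM in CD3e-/- TAC (1.18), and the 3 were *Gm42031*, *Gm46620* and *Gm49980*. Over all CD45+ cells *Ccl22* joined these 3 as past 2-fold lower in both pairs, at 52.3 and 16.9 CPM after TAC (-1.21), where 0.265% of genes passed. Mature dendritic cells, which held most of its sham reads, numbered only 6 and 2 in the sham pair and 6 and 4 in the TAC pair. In Csf1r Lyz2 cells its reads lay the other way, at 128 in WT sham and 518 in CD3e-/- sham. No gene was past 2-fold in opposite directions. *Cd163* was again lower, at 61.1 and 35.4 CPM (-0.65), and *Mrc1* too, at 812 and 554 CPM (-0.54), whereas *Folr2* was at 71.3 and 95.01 CPM (0.37) and *Cbr2* at 151 and 129 CPM (-0.21). Of the higher genes, *Mmp12* was at 196 and 145 CPM (-0.41), *Il1rn* at 85.2 and 72.4 CPM (-0.21), *Adam8* at 114 and 96.9 CPM (-0.22) and *Il1b* at 487 and 541 CPM (0.15). The difference between the pairs was not tested.

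The share of Csf1r Lyz2 cells with 3 resident markers was 24.7% [22.1 to 27.3] in WT TAC and 18.0% [15.2 to 21.1] in CD3e-/- TAC, the same way as in sham but closer together, and that with Ly6c-high markers was 26.7% [24.1 to 29.4] and 37.4% [33.7 to 41.1]. For *Cbr2*, *Cd163* and *Folr2* the CD3e-/- sham pool, at 133, 93.5 and 74.0 CPM, stood nearer to WT TAC, at 151, 61.1 and 71.3 CPM, than to WT sham, at 398, 263 and 182 CPM. These 3 genes were named for their low ratio in the sham pair, so their distance from WT sham was set by that choice. For *Mmp12* and *Il1b* WT TAC lay nearer to WT sham, with CD3e-/- sham apart. Both were named for a high ratio in the sham pair, so that distance of CD3e-/- sham was set by the choice as well. The summed level of 8 general macrophage markers was 9816 CPM in WT sham, 7254 CPM in CD3e-/- sham and 9275 CPM in WT TAC. That of the 8 resident markers was 2289, 1193 and 1155 CPM. *Retnla*, a gene of alternatively activated macrophages, was at 1968 CPM in WT sham and 2763 CPM in CD3e-/- sham (0.49), and at 333 and 28.6 CPM in the TAC pair.

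Several genes outside the T cell receptor complex parted the genotypes in all 5 pools. They were found after the values had been seen, by a rule that the highest CD3e-/- pool lie at least 0.5 below the lowest of the 3 WT pools on the log2 scale. *Gm42031* (chromosome 8, 85125923 to 85131814, GRCm38.p6) was at 879 CPM in WT sham and 371 CPM in CD3e-/- sham over all CD45+ cells, and its level after TAC was 979 CPM in WT mice, 1067 CPM in CD8-depleted mice and 385 CPM in CD3e-/- mice. *Gm43305* (chromosome 14, 54292441 to 54297488) was at 1179 and 636 CPM and *Gm4316* (chromosome 8, 123172562 to 123178767) at 664 and 357 CPM in the sham pair. *Trac* lies near *Gm43305* on chromosome 14, at 54220521 to 54224198. In B cells *Gm42031* was at 1361 and 714 CPM, in cDC2 at 922 and 347 CPM, in ILC2 at 1451 and 611 CPM and in mast cells at 254 and 129 CPM.

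*Nnt*, the mitochondrial nicotinamide nucleotide transhydrogenase (chromosome 13, 119335527 to 119409257), was at 35.2, 30.6 and 33.1 CPM in the pools of WT mice with sham, TAC and TAC with CD8 depletion, and at 13.8 and 12.9 CPM in the sham and TAC pools of CD3e-/- mice. *Nnt* is known to carry a deletion in the C57BL/6J substrain and to be intact in C57BL/6N, the strain in the labels of all samples. *Mid1* (chromosome X, 169685199 to 169990798), an E3 ubiquitin ligase, was at 40.7 and 17.3 CPM in the sham pair, and *Wdfy1* (chromosome 1, 79702262 to 79776143) at 41.3 and 16 CPM. Among Csf1r Lyz2 cells *Stab1* met the rule too. It was at 578, 458 and 480 CPM in the WT sham, WT TAC and CD8-depleted TAC pools. The CD3e-/- pools were at 289 CPM after sham and 320 CPM after TAC. The same rule turned round, with both CD3e-/- pools above the WT pools, was met over all CD45+ cells by *Ace*, at 43.2 and 70.1 CPM in the sham pair and 36.5 and 70.1 CPM in the TAC pair, and by *9430038I01Rik*, at 20.1 and 38.8 CPM in the sham pair, and in Csf1r Lyz2 cells by *Cd79a* and *Igkc*. The labels give no substrain for the CD3e-/- mice apart from the others, and a difference in background and the loss of CD3e cannot be told apart for any gene in these pools.

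**Figure D5:**
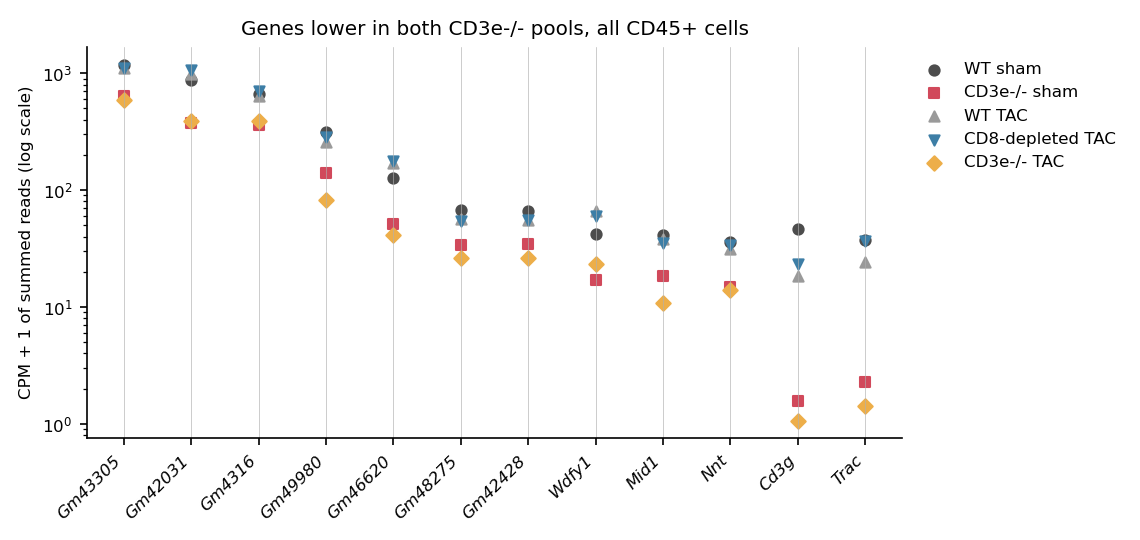
Level of 12 genes over all CD45+ cells as CPM + 1 of summed reads (log axis), 1 point for each of the 5 pools. Both CD3e-/- pools lie below the 3 WT pools for each gene, from *Gm43305* at 1179 and 636 CPM in the sham pair to *Trac* at 36.7 and 1.28 CPM.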

How the data were processed

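CD45+ heart cells of 5 groups were sequenced as 1 TAS-Seq library with hashtags. The authors deposited 1 matrix of raw read counts for 27809 genes and 5363 columns, in which the hashtag stands in the column name. The submitters' processing notes name cutadapt 2.10, Bowtie2 2.4.2 and the build GRCm38. The 8 columns without a hashtag and the 40 that the authors called doublets were left out, and no doublet caller was run here. The deposited counts hold no molecular identifiers, and the strand setting that the methods give is for RNA velocity, a separate mapping, so reads of overlapping genes may be shared here.

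Cells with at least 500 genes and a mitochondrial share of at most 0.4 were kept. Reads were summed per group and scaled to CPM, 10 CPM were added, and genes with at least 50 CPM in 1 or both sham pools and reads in at least 20 cells were compared. A marker counted for a gate at 100 CPM or more. A cell counts for the first gate it meets, and the Csf1r Lyz2 gate comes first. Thinning drew 20000 reads from each cell and left out 0 cells. The genes named are the 10 highest and the 10 lowest ratios in both populations, all genes past 2-fold, the T cell receptor genes, the ends of each gene list and the genes the study follows. Other genes given as examples of a list were chosen after their values were seen, and some genes that the rule names are not reported here.

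The cells, gene lists and rules were chosen with earlier results of these data known, and the gate markers and limits were set after the cells had been seen. The scripts were tested on simulated data. Python 3.11.15, numpy 2.4.6, scipy 1.17.1, pandas 2.3.3, matplotlib 3.10.9 and, for the TMM scaling alone, edgeR 4.0.16 in R 4.3.3 were used.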

Additional observations from a re-analysis of the deposited data

Results flagged for a closer look

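For 2 genes the sham pair and the TAC pair lay on opposite sides of 0 by at least 1.5-fold each way, with 1 pool per group, and the difference between the pairs was not tested. *Spp1* over all CD45+ cells had a log2 ratio of CD3e-/- over WT of -1.13 after sham, at 666 and 299 CPM, and of 0.64 after TAC, at 486 and 762 CPM. A single cell gave 19.9% of its WT sham reads and 36.8% of its CD3e-/- sham reads. *Chil3* in Csf1r Lyz2 cells had a ratio of 1.00 after sham, at 96.5 and 203 CPM, and of -0.60 after TAC, at 316 and 204 CPM. A single cell gave 49.7% of its CD3e-/- sham reads.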

How the results depend on the processing

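The counts of genes past 2-fold depended on the minimum level and the CPM added, which change by construction how many genes enter and how large ratios are, and on the weight of each cell and the other settings, for which the cause was not tested. In all CD45+ cells the 7 higher genes became 2 with the mean of per-cell CPM, 2 with thinned cells, 1 with 50 CPM added, 14 with no minimum and 4 with a minimum of 100 CPM. The 18 lower genes became 7 with 50 CPM added, 43 with no minimum and 10 with a minimum of 100 CPM. In Csf1r Lyz2 cells the 8 higher genes became 3 with 50 CPM added, 32 with no minimum, 5 with a minimum of 100 CPM and 5 with 1 mix of cells with and without resident markers. The 8 lower genes became 13 with 1 CPM added, 4 with 50 CPM added, 5 with the 1 mix and 4 in cells with fewer than 3 resident markers. Ratios that turned were *Igha* (0.0525 without the top cell of each gene, 0.0912 without the cell with most *Igha* reads), *Igkv3-2* (0.0028 and 0.03 under the same settings), *Igkc* (0.40 and 0.43 under these, 0.31 with the mean of per-cell CPM and 0.31 with thinned cells) and *Folr2* (0.20 in cells with fewer than 3 resident markers). Of the single-gene values under an alternative, 582 kept their side of 2-fold, 83 came inside it, 10 passed it and 9 turned, and the difference in share for Csf1r Lyz2, T, NK, B, mast, resident macrophage and Ly6c-high cells, those recomputed, stayed within its interval. The mix, the cells with fewer resident markers, the marker numbers and the cell with most *Igha* reads were alternatives chosen after seeing the data. No paired analysis was possible because each group is 1 pool in 1 library, and no replicate could be left out. *Arg1*, *Il10*, *Areg* and *Csf1* were too low in Csf1r Lyz2 cells to compare at this depth.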
